A study of Mus musculus with 6 samples.

Results

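The 200 noncoding RNAs described here were the brightest on the arrays among transcripts that RefSeq numbers as noncoding (accessions beginning with NR_). A probe entered if it stood well above background on all 6 arrays, each accession was represented by its brightest probe, and the 200 accessions with the highest mean log2 signal were kept. The arrays carried 39429 probes, of which 1216 had a noncoding accession. These covered 1078 accessions, 489 of them well above background on all 6 arrays, and 289 of those lay outside the 200. Members were chosen by their signal, the mean over all 6 arrays, so levels are given as a description. The rule did not use the difference between scaffolds, but the members and gene lists were chosen with earlier results of these data known.

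The cells were MC3T3-E1, a line of mouse pre-osteoblasts, grown for 3 days in 24-well plates on 1 of 2 scaffolds. De-HA is the FeMnSi scaffold after dealloying and coating with bioactive material (n = 3), and FeMnSi is the same scaffold in its original state (n = 3). By the labels both groups used the same line, plate format and culture time, and the effects of dealloying and of coating cannot be told apart. Each sample's total RNA carried Cy3 on its own 1-colour Agilent array. The labels do not name separate cultures behind the replicates, and p-values then reflect sample-to-sample spread alone, some of which may be technical.

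Between 63.5% and 74.4% of probes were well above background per array, and no spot was saturated. All 10 osteoblast markers on the array, including Col1a1, Runx2 and Sp7, were well above background on all 6 arrays. Their summed signal was 330.2 to 378.2 times the array's 75th percentile on De-HA and 274.3 to 313.0 times on FeMnSi. The brightest of them, Col1a2, Sparc and Col1a1, weigh most in this sum. They differed by 0.46, 0.47 and 0.44 on the log2 scale (limma adjusted p of 0.0895, 0.0679 and 0.0902). Under quantile normalization they differed by 0.095, 0.105 and 0.083, so the gap in the sum depends on the scaling. Of 7 macrophage markers 6 were well above background on all arrays, with a summed signal of 4.06 to 4.53 on De-HA and 3.05 to 4.30 on FeMnSi. Of 6 endothelial and 6 adipocyte markers 2 each were well above background on all arrays, while Cdh5, Tek, Emcn, Adipoq, Cidec and Lep were so on none. The epithelial markers, 2 of 4 of them well above background on all arrays, had a summed signal of 0.127 to 0.163 on De-HA and 0.0877 to 0.120 on FeMnSi. At an adjusted p of 0.05 (limma), 4 of the 10 osteoblast markers were higher on De-HA (Runx2, Sp7, Alpl and Ibsp) and 1 lower. The lower one was Spp1, at -1.09 on the log2 scale (limma adjusted p = 0.00834), the largest change of the 10. Among all probes tested 4.34% were higher and 2.57% lower. Of the other lists' markers, Adgre1 (macrophage) was higher by 0.77 and Kdr (endothelial) by 0.41 on the log2 scale, Fabp4 (adipocyte) was at -1.99, and no epithelial marker passed by limma (2 at an unadjusted p under 0.05), with Epcam at 0.88. The part of these markers in the results was not tested. By scan time, slide 1 held all De-HA arrays with FeMnSi 1, and slide 2 the other two FeMnSi arrays. The groups thus also differ in slide, and values within slide 1, which set the 3 De-HA arrays against FeMnSi 1, are given for the called members.

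Noncoding RNAs of this kind fall into several families. Long noncoding RNAs act or are processed in the nucleus or cytoplasm, and a subset, the small nucleolar RNA (snoRNA) host genes, are spliced so that their introns release snoRNAs, which guide chemical modification of ribosomal and spliceosomal RNA. The spliced host transcripts are often short-lived because cytoplasmic nonsense-mediated decay removes them, and many begin with a pyrimidine tract like that of ribosomal protein mRNAs. Transcribed pseudogenes are copies of protein-coding genes, and a probe against one can also bind the parent transcript. Structural RNAs such as ribosomal and spliceosomal RNA carry out translation and splicing.

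RefSeq annotation matched 182 of the 200 accessions to 1 gene each and 18 to none, and these matches carry 180 different symbols because Tug1 and Trmt61b each appear under 2 accessions. The matched genes were 115 lncRNAs, 59 transcribed pseudogenes, 2 ribosomal RNAs (Rn28s1 and Rn4.5s in the annotation), 2 spliceosomal RNAs (Rnu12 and Rnu1b6), Rmrp, the RNA of the RNase MRP enzyme, and 3 that RefSeq now holds as protein-coding genes, Zfp672, Bmp1 and Tmem80. The choice ended between neighbours of nearly equal level. The last 2 inside were 3300005D01Rik at a mean log2 signal of 7.12 and a Trmt61b transcript at 7.10, and the nearest 2 outside were 1810014B01Rik at 7.10 and 2610035D17Rik at 7.08.

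One structural group among the members is the lncRNAs that contain snoRNA or scaRNA genes (small Cajal body RNAs) within their span. The 5′ ends of 5 of the 6 that were higher on De-HA are shown because they show whether a host begins with a pyrimidine tract (Snhg6, the other, is not shown, and 1110038B12Rik is shown for 1 of its 2 annotated starts). Each sequence runs from 50 bases before to 50 bases after the annotated start (RefSeq, GRCm38.p6), 5′ to 3′ on the transcript strand, and capitals mark the tract.
Snhg12 (chr4:132308628-132308727, plus strand): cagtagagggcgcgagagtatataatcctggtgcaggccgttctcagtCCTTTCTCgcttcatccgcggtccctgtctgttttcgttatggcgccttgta
2410006H16Rik (chr11:62602827-62602926, plus strand): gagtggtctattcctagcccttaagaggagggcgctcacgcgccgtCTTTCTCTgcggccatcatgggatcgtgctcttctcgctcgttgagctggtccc
Snhg7 (chr2:26640195-26640294, minus strand): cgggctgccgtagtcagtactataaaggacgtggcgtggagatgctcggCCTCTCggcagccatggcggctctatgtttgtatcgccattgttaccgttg
1110038B12Rik (chr17:34952419-34952518, minus strand): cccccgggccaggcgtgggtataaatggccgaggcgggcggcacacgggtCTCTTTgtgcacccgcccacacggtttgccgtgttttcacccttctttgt
Dancr (chr5:74093010-74093109, plus strand): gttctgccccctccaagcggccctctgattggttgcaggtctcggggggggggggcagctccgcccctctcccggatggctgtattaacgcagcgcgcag
The tract was defined as a C followed by at least 4 bases that are each C or T, beginning within 10 bases of the annotated start on the transcript strand. Of the 12 host members with a sequence 9 held it (75%), as did 22 of the 87 other member genes with a sequence (25.3%) and 9297 of all 27025 genes in the table (34.4%). A match is only a stretch of letters at an annotated start, which may lie some bases from the true one, and the tracts were not tested for any activity.

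Of the 200 members 198 could be tested, since Gm6981 and Gm13315 had no usable spot on at least 1 array. Of these, 15 were higher and 3 lower on De-HA at an adjusted p of 0.05 (limma, Benjamini-Hochberg over all 28175 probes tested). That is 9.09% of the members, where 6.91% of all probes passed the same test, 4.34% higher and 2.57% lower. The share called higher, 7.58%, lay above that of all probes and the share called lower, 1.52%, below it. The 2 sets differ in signal, since members stood well above background on all 6 arrays and the 28175 probes on at least 3. Calls also differed by signal among the members, at 12.2% of the brighter 98 tested and 6% of the dimmer 100. With all 6 arrays required of every probe, 27 of 198 members and 2711 of 24318 probes passed. The part of signal level in these shares was not tested. The median log2 fold change was 0.18 over the members and 0.12 over all probes. Quantile normalization takes the median of all probes to 0.0013, and under it 9 members were higher and 4 lower, where 6.35% of all probes passed, 2.57% higher and 3.78% lower. Among all probes 62.8% of calls were higher in the scaling used here and 40.5% under quantile normalization, so the direction with more calls depends on the scaling, whereas all 18 members kept their sign. Of the 18, 12 passed under quantile normalization and 11 under median scaling. E130304I02Rik, Trmt61b, NR_002840 and NR_027905 passed under neither, 1110038B12Rik and 2410006H16Rik missed under quantile normalization, and Snhg6, NR_024069 and BC051226 missed under median scaling. With slide as a block, where 0.561% of all probes passed, no member did by limma. The lowest adjusted p of the 18 was then 0.0533, and 40 members had an unadjusted p under 0.05. On the arrays of slide 1 alone 0.0213% of probes and no member passed, again with 40 at an unadjusted p under 0.05, and all 18 kept their sign in both fits. Leaving out FeMnSi 1 raised the calls to 46 higher and 7 lower, where 18.6% of all probes were higher and 6.88% lower. Leaving out any other array left at most 1 in each direction, and 15 of the 18 passed in 1 of the 6 leave-one-out fits. The part of slide or of FeMnSi 1 in these calls was not tested.

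**Figure D1:**
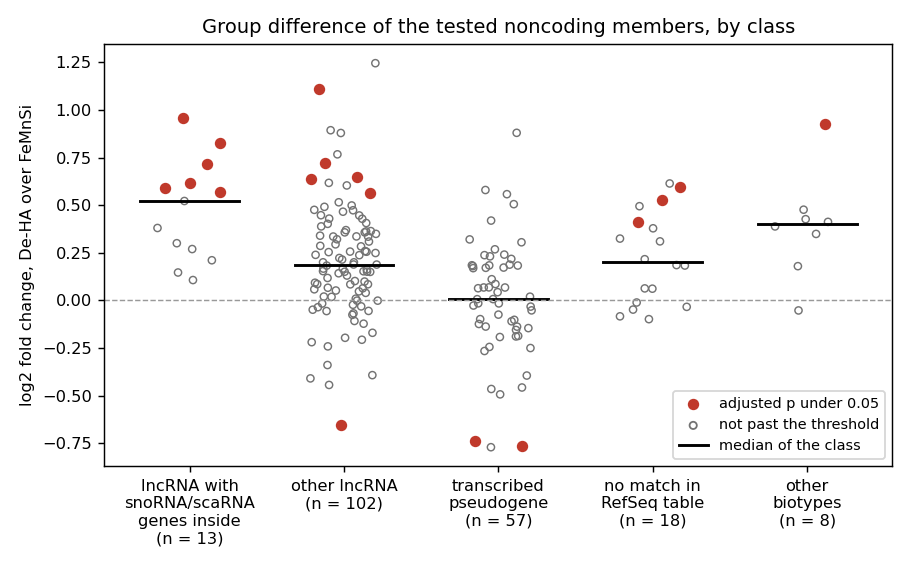
Log2 fold change of De-HA over FeMnSi for the 198 tested members, split by class on the x axis. Each point is 1 member, filled where adjusted p was under 0.05, and lines mark class medians. Members with snoRNA or scaRNA genes inside have a median of 0.52, pseudogenes a median of 0.01, and every estimate in the first class is above 0. That class was drawn after values were seen.

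The class of members with snoRNA or scaRNA genes inside was drawn after values were seen, so its counts are a description. Its 13 members had 6 calls higher and none lower, where 4.34% of all probes were higher and 2.57% lower. Their median log2 fold change was 0.52, with estimates between 0.11 and 0.96. All 13 estimates stayed above 0 under quantile normalization, median scaling, normexp background correction and the authors' matrix, and 12 of 13 did within slide 1, where Snhg17 was at -0.17. These are not separate checks. The matrix nearly repeated quantile normalization (medians over the 13 of 0.398 and 0.395), and median scaling shifted every estimate equally. The 185 other tested members had 9 higher, 3 lower and a median of 0.17, and the 102 lncRNAs among them had 5 higher, 1 lower and a median of 0.19. The counts of hosts moved with the settings. With slide as a block none passed by limma, 6 had an unadjusted p under 0.05, and the median was 0.37. Under quantile normalization 4 passed and the median was 0.40. In bulk RNA, fewer cells of a type and less RNA per cell cannot be told apart. The median over the 13, relative to each probe's mean over the 6 arrays, was 0.25, 0.20 and 0.27 on De-HA 1, 2 and 3, against -0.13, -0.31 and -0.24 on FeMnSi 1, 2 and 3.

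**Figure D2:**
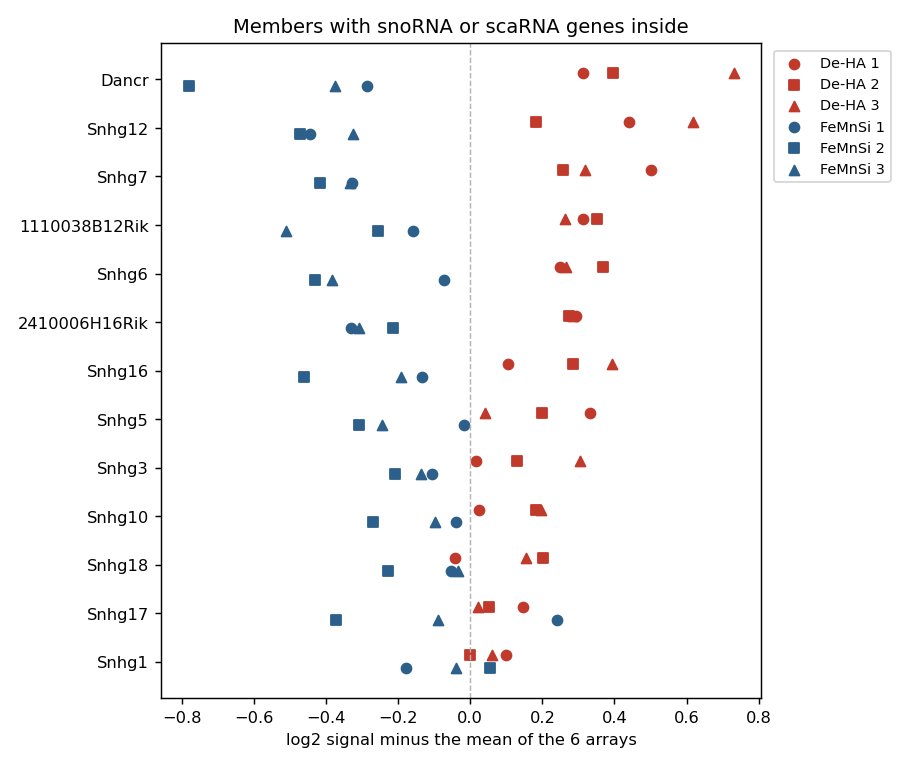
Log2 signal of each host member on each array, minus the mean of the 6 arrays (x axis), 1 row per member, with De-HA points above FeMnSi points in each row. The groups do not overlap in the rows from Dancr to Snhg10 and do overlap in Snhg18, Snhg17 and Snhg1. The class was drawn after values were seen, and the share of all probes without overlap was not computed.

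Values by array are log2 signal relative to the 75th percentile of the array, so that 0 is the level of the 75th-percentile probe. Snhg12 contains Snora16a, Snora44, Snora61 and Snord99, and had 3.80, 3.54 and 3.98 on De-HA 1, 2 and 3, against 2.92, 2.89 and 3.04 on FeMnSi 1, 2 and 3. It was higher on every De-HA array than on any FeMnSi array, by a log2 fold change of 0.83 ± 0.13 (SE; limma adjusted p = 0.0209). The difference within slide 1 was 0.86. Dancr, which holds Snora26 and is described in the literature as an inhibitor of osteoblast differentiation in human cells, had 0.49, 0.57 and 0.90 on De-HA, against -0.11, -0.61 and -0.20 on FeMnSi. The groups did not overlap, and the difference was 0.96 ± 0.17 (SE; limma adjusted p = 0.0278), with 0.77 within slide 1. Snhg7, host of Snora43 and Snora17, had -0.80, -1.04 and -0.98 on De-HA, against -1.63, -1.72 and -1.63 on FeMnSi. All De-HA arrays were above all FeMnSi arrays, by 0.72 ± 0.10 (SE; limma adjusted p = 0.0164), with 0.69 within slide 1.

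2410006H16Rik contains Snord49a, Snord49b and Snord65, and had 3.44, 3.42 and 3.43 on De-HA, against 2.82, 2.93 and 2.84 on FeMnSi. The arrays of each group lay close together and the groups were apart, by 0.57 ± 0.09 (SE; limma adjusted p = 0.0194), with 0.61 within slide 1. 1110038B12Rik, host of Snord52, had 4.65, 4.69 and 4.60 on De-HA, against 4.18, 4.08 and 3.83 on FeMnSi, a difference of 0.62 ± 0.12 (SE; limma adjusted p = 0.0322). Snhg6, host of Snord87, had 3.45, 3.57 and 3.47 on De-HA, against 3.13, 2.77 and 2.82 on FeMnSi, a difference of 0.59 ± 0.12 (SE; limma adjusted p = 0.0400). In both, FeMnSi 1 was the FeMnSi array nearest to De-HA, and the difference within slide 1 was 0.47 for 1110038B12Rik and 0.37 for Snhg6. Under quantile normalization 2410006H16Rik and 1110038B12Rik missed the threshold, at adjusted p of 0.0630 and 0.0728 (limma).

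The 7 other hosts did not pass. Snhg16 had 1.39, 1.57 and 1.68 on De-HA, against 1.16, 0.83 and 1.1 on FeMnSi, with a difference of 0.52 and a limma adjusted p of 0.0586, but another probe of the same accession gave 0.08. Snhg5, Snhg3, Snhg10, Snhg18, Snhg17 and Snhg1 had log2 fold changes of 0.38, 0.30, 0.27, 0.21, 0.15 and 0.11, with limma adjusted p between 0.0991 and 0.543. Snhg17 had -1.87, -1.96 and -1.99 on De-HA, against -1.77, -2.39 and -2.10 on FeMnSi, so that FeMnSi 1 was above all De-HA arrays. A list of 23 snoRNA host genes assembled for this work had 12 on the arrays, of which 11 were members and the other was protein-coding Taf1d (0.02, limma adjusted p = 0.911). Of those 12, 4 passed, all higher, with a median of 0.34, where 4.34% of all probes were higher.

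Lists of proteins that act with these RNAs, each gene by its brightest tested probe, are set against the 6.91% of all probes that passed. None of 11 snoRNP proteins, which assemble with snoRNAs, passed by limma on its brightest probe (0 at an unadjusted p under 0.05), with a median of 0.02. Nop56, a core component of box C/D particles, was at 0.29 (limma adjusted p = 0.272) by its brightest probe and at -0.61 by its other probe. Nolc1 was at 0.09 by its brightest probe and at -0.69 by its other, and Snu13 at -0.08 and -0.22. None of 13 nonsense-mediated decay factors passed by limma (4 at an unadjusted p under 0.05), with a median of 0.11, and Casc3, of the exon junction complex, was at 0.48 (limma adjusted p = 0.0665). Of 17 genes of the RNA exosome and its nuclear cofactors, which degrade and trim nuclear RNA, 2 were lower and none higher. Exosc6 had 0.70, 0.64 and 0.45 on De-HA, against 1.18, 1.40 and 1.12 on FeMnSi, a difference of -0.63 ± 0.12 (SE; limma adjusted p = 0.0332), with -0.58 within slide 1. The groups did not overlap. Exosc8, another exosome core subunit, differed by -0.53 (limma adjusted p = 0.0491), and by -0.35 within slide 1. Of 19 proteins of the 7SK, RNase P and RNase MRP particles Rpp40 alone passed, at -0.66 (limma adjusted p = 0.0149), with -0.64 within slide 1; with normexp background correction it was at -0.09 and did not pass.

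Among lncRNAs with no snoRNA gene inside, E130304I02Rik, whose function is not given in the tables used, had the largest called difference. It had 5.34, 5.52 and 5.23 on De-HA, against 4.80, 3.75 and 4.22 on FeMnSi. The De-HA arrays lay together above a spread FeMnSi group, and the difference was 1.11 ± 0.25 (SE; limma adjusted p = 0.0488), or 0.57 within slide 1; it was the only called member at 2-fold or more. The call was lost under quantile normalization, median scaling and the authors' matrix, at limma adjusted p of 0.0647, 0.0541 and 0.0639. Nron, a noncoding repressor of the transcription factor NFAT, had -0.75, -0.89 and -0.73 on De-HA, against -1.54, -1.67 and -1.33 on FeMnSi. The groups were apart by 0.72 ± 0.12 (SE; limma adjusted p = 0.0230), and the difference within slide 1 was 0.75. BC065397 had -0.70, -0.81 and -0.65 on De-HA, against -1.30, -1.51 and -1.27 on FeMnSi, a difference of 0.64 ± 0.11 (SE; limma adjusted p = 0.0238), with 0.58 within slide 1, while a second probe gave 0.31.

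Trmt61b, which carries the name of a mitochondrial tRNA methyltransferase, is counted here among the lncRNAs. Its called noncoding transcript had -2.0, -1.77 and -2.02 on De-HA, against -2.73, -2.64 and -2.36 on FeMnSi. Its difference was 0.65 ± 0.13 (SE; limma adjusted p = 0.0400), with 0.80 within slide 1, while the probe for the other Trmt61b accession gave 0.05. The accession NR_024069 had 0.66, 0.80 and 0.61 on De-HA, against 0.30, 0.07 and -0.09 on FeMnSi, with a difference of 0.60 (limma adjusted p = 0.0414), or 0.39 within slide 1. The groups of both were apart. The other 3 called members were named after their values were seen. BC051226 differed by 0.57, NR_002840 by 0.53 and NR_027905 by 0.41, with limma adjusted p of 0.0361, 0.0245 and 0.0491, and within slide 1 by 0.41, 0.53 and 0.42. For NR_002840 the other 2 probes gave -0.15 and 0.08, so its call rests on 1 of 3 probes.

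Zfp672, a zinc finger gene with a noncoding accession on the array, had 0.91, 1.19 and 1.12 on De-HA, against 0.28, -0.01 and 0.17 on FeMnSi. The groups were apart by 0.93 ± 0.12 (SE; limma adjusted p = 0.0135), with 0.80 within slide 1, and it passed in 3 leave-one-out fits. The probe for its protein-coding accession had -1.29, -1.68 and -1.58 on De-HA, against -1.24, -1.37 and -1.36 on FeMnSi, a difference of -0.19 (limma adjusted p = 0.307). The 2 probes of this gene thus moved unequally.

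The 3 members that were lower fell on De-HA. H2-K2, annotated as a transcribed pseudogene of the class I histocompatibility family, had 0.39, 0.15 and 0.21 on De-HA, against 0.94, 1.06 and 0.97 on FeMnSi. All De-HA arrays were below all FeMnSi arrays, by -0.74 ± 0.10 (SE; limma adjusted p = 0.0160), with -0.68 within slide 1, and a second probe gave -0.80 (limma adjusted p = 0.0132). Its near-identical relatives in the family could bind the same probe, which was not tested. 5730416F02Rik, a transcribed pseudogene, had -1.85, -1.85 and -1.89 on De-HA, against -0.89, -1.08 and -1.33 on FeMnSi. The groups were apart by -0.76 ± 0.13 (SE; limma adjusted p = 0.0240), with -0.97 within slide 1. The lncRNA 2810408I11Rik had -0.19, 0.01 and -0.14 on De-HA, against 0.49, 0.61 and 0.56 on FeMnSi, a difference of -0.66 ± 0.10 (SE; limma adjusted p = 0.0183), with -0.59 within slide 1.

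**Figure D3:**
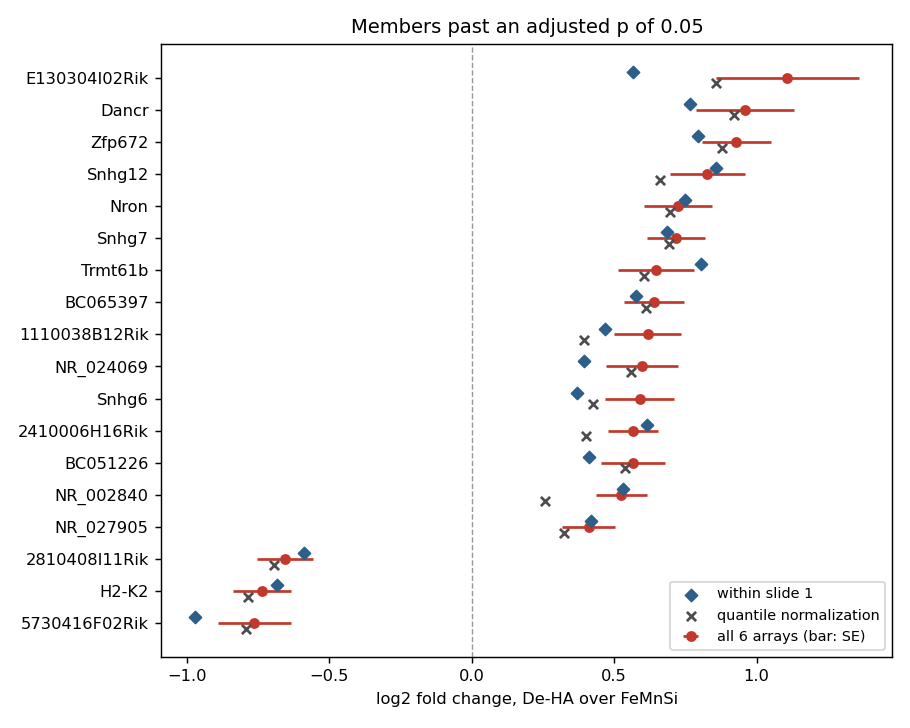
Log2 fold change of De-HA over FeMnSi (x axis) for the 18 called members, 1 per row. Circles with SE bars are the estimate from all 6 arrays, diamonds the estimate within slide 1, and crosses the estimate under quantile normalization. All 3 estimates of each member lie on the same side of 0, and E130304I02Rik has the largest gap between all arrays (1.11) and slide 1 (0.57).

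The 57 tested pseudogene members had 2 calls, both lower, and a median of 0.01. That is 3.51% lower, near the 2.57% of all probes. The 115 lncRNA members had 11 higher, 1 lower and a median of 0.21. The 102 of them without snoRNA or scaRNA genes inside had 5 higher, 1 lower and a median of 0.19. Their share higher was 4.90%, near the 4.34% of all probes. Under quantile normalization the pseudogene median was -0.12, with 3 lower. Of the members named after a parent gene 8 had a tested parent probe, and neither the pseudogene nor the parent's brightest probe passed in any of them by limma (1 of the 8 pseudogenes at an unadjusted p under 0.05). For example Rps15a-ps6 was at -0.11, while the 3 probes of its parent Rps15a, a ribosomal protein gene, ran from -0.66 to 0.49.

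By each gene's brightest tested probe, none of 7 tested lncRNAs of nuclear architecture passed by limma (3 at an unadjusted p under 0.05). A second probe of Kcnq1ot1, one of the 7, did pass, at 0.64 (limma adjusted p = 0.0265). Malat1, a nuclear speckle RNA, had 5.02, 4.98 and 5.93 on De-HA, against 5.31, 5.42 and 5.56 on FeMnSi, and the groups overlapped (-0.12, limma adjusted p = 0.758). Neat1, the scaffold RNA of paraspeckles, had 2.99, 2.49 and 2.82 on De-HA, against 2.60, 2.90 and 2.74 on FeMnSi, and its estimate of 0.02 turned to -0.11 under quantile normalization. Of 10 paraspeckle proteins Sfpq alone passed, at 0.52 (limma adjusted p = 0.0395; 0.38 within slide 1), and not under quantile normalization (0.0844). Norad, a cytoplasmic RNA that binds Pumilio proteins, had 2.01, 1.76 and 1.79 on De-HA, against 2.22, 2.43 and 2.24 on FeMnSi. The groups were apart (-0.44, limma adjusted p = 0.0628), but its other 3 probes gave 0.31, 0.01 and 0.22.

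Tug1 had 2 accessions among the members, at 0.48 and 0.34 (limma adjusted p of 0.0548 and 0.0831), and another probe gave -0.05. Pvt1, a neighbour of Myc, was at 0.62 (limma adjusted p = 0.0678), and another probe gave -0.07. The imprinted RNAs Peg13 and Kcnq1ot1 were at 0.47 and 0.45 and did not pass, and a second Kcnq1ot1 probe passed at 0.64 (limma adjusted p = 0.0265). Airn, the imprinted antisense RNA of Igf2r, was at -0.08, whereas a second Airn probe was at 0.55 and passed (limma adjusted p = 0.0240).

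None of the 3 members on the list of microRNA host transcripts passed. Dnm3os, which carries microRNAs of the miR-199a and miR-214 families, is required for skeletal growth in the mouse. Its mature microRNAs from RefSeq, with the seed (bases 2 to 8) in capitals, are shown because the array measured the host and not these products.
miR-199a-5p: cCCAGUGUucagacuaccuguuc
miR-199a-3p: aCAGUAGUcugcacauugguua
miR-214-5p: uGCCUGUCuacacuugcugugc
miR-214-3p: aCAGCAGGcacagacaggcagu
No 2 of these 4 seeds are the same. Dnm3os had -0.02, -0.05 and 0.38 on De-HA, against -0.32, -0.53 and -0.05 on FeMnSi, with a difference of 0.40 (limma adjusted p = 0.157), and other probes gave 0.21 and -0.72. The groups did not overlap on the member probe, but the probes differ in sign. Mir17hg, host of the miR-17-92 cluster, was at 0.22, and Mir99ahg at 0.16. Outside the 200, Mir22hg was at 0.80 and Mir100hg at 0.85, and both passed (limma adjusted p of 0.0341 and 0.0271), with 0.56 and 0.85 within slide 1. None of 10 microRNA processing genes passed by limma (1 at an unadjusted p under 0.05); Drosha was at 0.36, with another probe at -0.08, and Prkra at -0.45.

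None of the 12 brightest members passed by limma (2 at an unadjusted p under 0.05). Rn28s1 had 7.57, 7.44 and 7.48 on De-HA, against 7.58, 6.73 and 6.93 on FeMnSi, so that FeMnSi 1 lay with the De-HA arrays (0.41, limma adjusted p = 0.215). Rmrp was at 0.48 (limma adjusted p = 0.100), Rnu12 at 0.18 and Rnu1b6 at -0.05.

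The remaining lists held both members and dimmer noncoding RNAs, each gene taken by its brightest tested probe. Counts here stand beside the 4.34% of all probes that were higher and the 2.57% that were lower. The lists share genes, and Mir22hg is counted in the osteoblast, stress and microRNA host lists. Of 12 tested lncRNAs that the literature ties to osteoblasts, 2 were higher and none lower, Dancr and Mir22hg, with a median of 0.31, and Crnde, one of those not called, was at 0.20. Of 5 p53- and stress-regulated lncRNAs Mir22hg alone passed. Of 7 microRNA host transcripts 2 were higher, Mir22hg and Mir100hg. None of 4 imprinted RNAs, 7 structural RNAs and 10 HOX and developmental antisense lncRNAs passed by limma on their brightest probes. Of these, 2, 1 and 2 had an unadjusted p under 0.05. Second probes of the imprinted Kcnq1ot1 and Airn did pass, as given above. The 486 tested probes for other noncoding accessions or for other stretches of the members had 28 calls higher, 5 lower and a median of 0.20, which is 6.79% called. The 18 members with no match in the annotation had 3 calls higher and none lower.

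Members differed in how evenly the FeMnSi arrays behaved. The SD within De-HA had a median of 0.12, with 1 member over 0.5, and the SD within FeMnSi a median of 0.15, with 11 members over 0.5. Of those 11, named here after their values were seen, FeMnSi 1 was nearer to the De-HA mean than FeMnSi 2 and 3 were in 10, and FeMnSi 2 was the lowest of the group in 8. AI646519 had 2.42, 2.53 and 2.15 on De-HA, against 1.94, 0.41 and 1.02 on FeMnSi. Its difference of 1.25 was the largest of all members and did not pass (limma adjusted p = 0.0778), and within slide 1 it was 0.43. I730030J21Rik had 5.36, 5.81 and 5.70 on De-HA, against 5.54, 3.71 and 4.94 on FeMnSi, and its difference of 0.89 was 0.09 within slide 1. Gm10731, with an SD of 1.64, had 2.25, 2.29 and 1.94 on De-HA, against 4.39, 1.25 and 2.02 on FeMnSi. In AI646519 and I730030J21Rik the difference within slide 1 was smaller than over all arrays, and in Gm10731 FeMnSi 1 alone stood high.

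**Figure D4:**
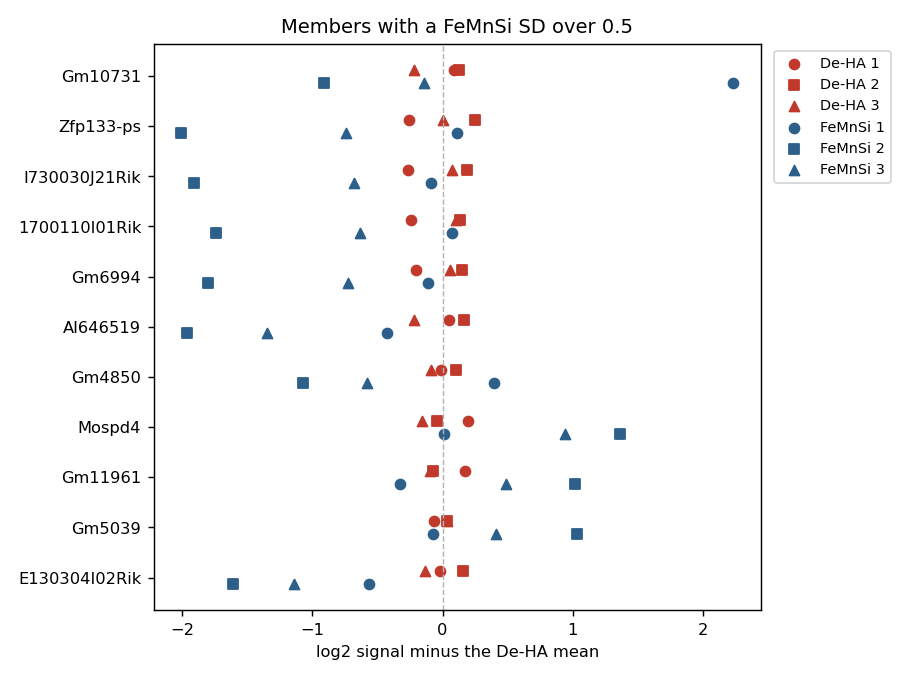
Log2 signal minus the De-HA mean (x axis) on each array for the 11 members with an FeMnSi SD over 0.5, 1 row each, with De-HA points above FeMnSi points. FeMnSi 1 lies nearer to the De-HA mean than FeMnSi 2 and 3 in 10 of the 11 rows, the exception being Gm10731 at the top.

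Probes of the same accession could be compared for 46 tested members, in 56 pairs. The absolute difference between their log2 fold changes had a median of 0.30 and reached 1.12, and in 17 of the 46 members a second probe had the opposite sign. Of the 4 called members in this set, 3 had every other probe on the same side and 1, H2-K2, had another probe past the threshold.

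**Figure D5:**
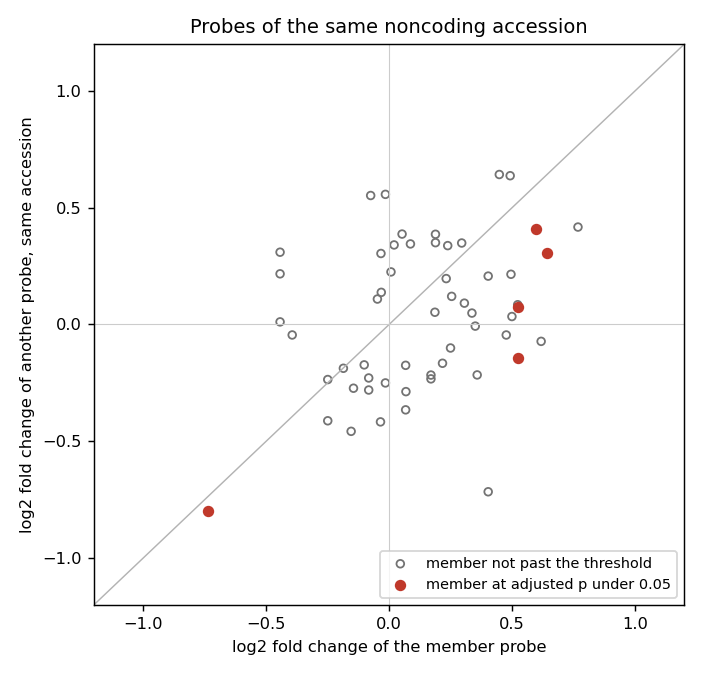
Log2 fold change of the member probe (x axis) against that of another probe of the same accession (y axis), 1 point per pair, filled where the member was called. The line marks equal values. Points scatter widely about it, with a median absolute difference of 0.30, and the H2-K2 pair lies near it at -0.74 and -0.80.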

How the data were processed

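Per the submitters' processing notes, spots were quantified in Agilent Feature Extraction 11.0.1.1. The deposited intensity values are background-subtracted and detrended within each array and not scaled between arrays, per the file headers. The authors' series matrix holds deposited log2 values (median 5.77 in every array, r with the scanner signals 0.997 to 1.00) and served as an alternative. Log2 signals were shifted by each array's 75th percentile, outlier spots left out, spots of a probe averaged, and probes kept if well above background on at least 3 of 6 arrays. The 2 scaffolds were compared (limma 3.58.1, R 4.3.3) with Benjamini-Hochberg adjustment at 0.05. Tested on simulated data on 28175 probes, 200 of them changed, it recovered 4%, 58%, 82% and 94% of changes of 0.5, 1, 1.5 and 2 (log2). In the data 1948 probes were called, more than were changed in the simulation, so these shares need not hold for the data. The number of arrays limits the precision. Symbols and sequences come from RefSeq (GRCm38.p6). Normexp used the median spot signal, and spots with a marked background outlier took the array's median background. Named members were those on 14 gene lists, the 12 brightest, up to 12 largest called rises and falls with the groups apart, the 2 on either side of rank 200, and up to 3 genes per protein list. Counts over lists and markers took each gene by its brightest tested probe. The members and lists were chosen with earlier results of these data known, and the class with snoRNA or scaRNA genes inside was drawn after values were seen. The main fit did not pair samples by replicate number. Correlations of deviations between same-numbered arrays were 0.03, -0.08 and 0.14 for replicates 1, 2 and 3. The highest with another number were 0.14, 0.20 and 0.01. With 3 arrays per group these values cannot show whether the samples were paired.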

Additional observations from a re-analysis of the deposited data

How the results depend on the processing

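All 18 called members kept their sign in every alternative that tested them. The alternatives reuse the same arrays and are not independent, and slide as a block gives the same differences as slide 1 alone. Members higher and lower numbered 9 and 4 under quantile normalization, 8 and 4 under median scaling and in the authors' matrix, 32 and 5 with normexp, 23 and 4 under the stricter filter on dim probes (all 6 arrays required), 29 and 4 with an intensity trend, and 1 and 0 with the replicate block. None passed without a filter on dim probes, with slide as a block or within slide 1, where 61, 40 and 40 had an unadjusted p under 0.05 by limma. Leaving out 1 array gave 0 to 46 higher and 0 to 7 lower, with FeMnSi 1 left out giving the most. The members' median was 0.094 under quantile normalization, 0.090 under median scaling, 0.095 in the matrix, and 0.13 with slide as a block or within slide 1. Of the 13 hosts, 3 were higher in the matrix, 1 with the replicate block, none without a filter or with slide accounted for, and 0 to 8 with 1 array left out. Their median was 0.40 under quantile normalization and in the matrix, 0.44 under median scaling, 0.37 with slide, and 0.42 to 0.56 with 1 array left out. The share of all calls that were higher was 62.8% here, 40.5% under quantile normalization, 39.4% under median scaling, 42.5% in the matrix and 72.9% with normexp, and all-probe calls numbered 1948 here, 2954 with normexp, 2711 under the stricter filter, 3294 with the trend, 158 with slide as a block and 7174 without FeMnSi 1. No called member reversed. Over all 198 tested members, 142 estimates were above 0 here, 120 under quantile normalization, 119 under median scaling, 122 in the matrix (of 200 members tested there) and 141 with slide as a block. Of the named genes not called, counted here without the other members, estimates turned under quantile normalization and the matrix for Gm12070 (-0.22 in both), Gm6548 (-0.15), Rn4.5s (-0.026), Gm5523 (-0.35), Gm10653 (-0.091 and -0.089), Gm5766 (-0.20), Gm15772 (-0.017 and -0.016) and Neat1 (-0.11). Under median scaling they turned for Gm5523 (-0.079), Gm5766 (-0.00023) and Neat1 (-0.066). With slide as a block and within slide 1 they turned for Rn28s1 (-0.084), Gm12070 (-0.0075), Gm5523 (-0.067), Airn (0.17), Mir17hg (-0.036), Snhg17 (-0.17) and Nop10 (0.0013). With 1 array left out they spanned 0 for Gm5523 (-0.040 to 0.045), Malat1 (-0.43 to 0.043), Neat1 (-0.091 to 0.16), Airn (-0.20 to 0.034), Rnu1b6 (-0.13 to 0.056) and Snhg17 (-0.0030 to 0.30). The cause was not tested. In the simulation, which changed 200 probes, 4% of changes of 0.5 on the log2 scale were recovered, a share that need not hold for these data. A member that did not pass is not shown to be unchanged.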
